A study of Homo sapiens with 10 samples.

Results

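The 9 genes described here encode transcription factors and a coactivator that set plasma cell and B cell identity: IRF4, PRDM1, IKZF1, IKZF3, POU2AF1, MAF, MEF2C, PAX5 and BCL6. They were chosen by name, with earlier results of these data known, so counts called among them only describe these data. All of their probe sets with a single gene symbol were taken, and the brightest one, by its mean of 10 arrays, led for its gene. They are 9 of 19775 genes and hold 34 of 41097 such probe sets. Each gene had 2 to 9 probe sets, 26 of which had a mean log2 signal of at least 5 and 8 a lower one.

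The cells were MM.1S, a human multiple myeloma line, infected with lentivirus carrying a short hairpin RNA (shRNA) and lysed for total RNA after 48 h. The 10 arrays formed 5 groups of 2: hairpins against the histone deacetylase HDAC3 (shHDAC3#1 and shHDAC3#2), hairpins against the DNA methyltransferase DNMT1 (shDNMT1#1 and shDNMT1#2), and a hairpin against luciferase (shLuc). The shLuc arrays carry the label of control for the HDAC3 hairpins, and both knockdowns were set against the same 2 shLuc arrays. The sources used here do not say if the DNMT1 hairpins were run side by side with shLuc and the HDAC3 hairpins, and a batch difference, had there been one, cannot be told apart from DNMT1 knockdown. The groups share 1 cell line, the replicates are not stated to be separate cultures, and the p-values therefore rest on a spread between arrays that may be only technical.

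Plasma cells are antibody factories, and their identity is held by a small circuit of factors. IRF4 switches germinal centre B cells towards the plasma cell fate and is a dependency of myeloma cells, while PRDM1 (BLIMP-1) represses the B cell program, including PAX5 and BCL6. IKZF1 and IKZF3 maintain IRF4 in myeloma and are degraded through cereblon by immunomodulatory drugs, POU2AF1 (OCA-B) is a lymphoid coactivator of octamer-binding factors, and MEF2C is a MADS-box factor that recruits class IIa histone deacetylases. MM.1S carries a translocation that places MAF under immunoglobulin heavy chain enhancers.

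The targeted genes were checked first. HDAC3 had log2 signals of 5.97 and 5.72 with shHDAC3#1, 5.83 and 5.52 with shHDAC3#2, and 7.26 and 6.61 with shLuc, an average change of -1.18 (limma, adjusted p = 1.17e-05). DNMT1 changed by -2.39 in DNMT1 knockdown cells (limma, adjusted p = 9.53e-12), and also by -0.92 in HDAC3 knockdown cells (limma, adjusted p = 1.59e-06). HDAC3 in turn fell by 0.60 with shDNMT1#2 (limma, adjusted p = 0.0186) and had -0.125 with shDNMT1#1 (limma, adjusted p = 0.728). Replicate arrays differed by a root mean square of 0.159 to 0.209 over genes. The SD of log2 signal within an array was 1.843 to 1.915 in the 8 knockdown arrays against 1.929 and 1.943 in the shLuc arrays, so that it differed between knockdown and control. The 3'-minus-5' signal of ACTB was 0.98 and 1.02 with shHDAC3#1 and 0.63 to 0.81 on the other arrays. Its part in the changes seen with shHDAC3#1, such as those of MAF, IKZF3 and PRDM1, was not tested. All 7 plasma cell markers measured had a mean of at least 5, and their average was 9.61, 9.86, 9.46 and 9.63 with shHDAC3#1, shHDAC3#2, shDNMT1#1 and shDNMT1#2, against 9.98 with shLuc. Markers of other cell types were not uniformly dim: a mean under 5 was found for 1 of 5 mature B cell, 4 of 6 T cell, 1 of 4 monocyte, 2 of 6 fibroblast, 1 of 5 epithelial and 0 of 2 erythroid markers. The B cell marker MS4A1 had 3.06 but CD22 had 8.01 and CR2 7.40, and COL1A1 of fibroblasts had 8.55 and HBB of erythroid cells 7.64. Averaged by list, B cell markers lay between 6.24 and 6.50 on the 10 arrays, T cell markers between 5.18 and 5.42, monocyte markers between 5.14 and 5.50, fibroblast markers between 6.15 and 6.39, epithelial markers between 5.63 and 6.10, and erythroid markers between 6.32 and 7.07. Their part in the results was not tested. In RNA from a whole culture, fewer cells of a type and less RNA per cell cannot be told apart.

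DNMT1 copies methyl groups onto the CpG pairs of newly made DNA. The start regions of the 3 genes that fell together in DNMT1 knockdown cells are printed, with each CpG in capitals. They come from RefSeq, build GRCh38.p14, and span 250 bases before to 50 from the start, 5′ to 3′ on the gene's strand. IRF4 starts in chr6:391502-391801 (plus strand), PRDM1 in chr6:106086086-106086385 and chr6:106098691-106098990 (plus strand), and the first of 7 listed MEF2C windows is chr5:88883135-88883434 (minus strand).
IRF4: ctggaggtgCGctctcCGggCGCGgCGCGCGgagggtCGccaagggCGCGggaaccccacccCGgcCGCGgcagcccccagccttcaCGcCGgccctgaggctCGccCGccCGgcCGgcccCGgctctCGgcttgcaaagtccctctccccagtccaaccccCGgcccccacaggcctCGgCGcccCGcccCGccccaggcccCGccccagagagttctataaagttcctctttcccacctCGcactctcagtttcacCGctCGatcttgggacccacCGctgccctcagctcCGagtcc
PRDM1, upstream start: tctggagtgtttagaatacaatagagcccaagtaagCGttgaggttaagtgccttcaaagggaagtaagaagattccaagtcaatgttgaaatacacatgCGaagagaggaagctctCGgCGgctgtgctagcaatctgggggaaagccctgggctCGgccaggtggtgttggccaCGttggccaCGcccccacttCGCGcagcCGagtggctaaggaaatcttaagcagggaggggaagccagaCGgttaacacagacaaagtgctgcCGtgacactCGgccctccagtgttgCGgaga
PRDM1, downstream start: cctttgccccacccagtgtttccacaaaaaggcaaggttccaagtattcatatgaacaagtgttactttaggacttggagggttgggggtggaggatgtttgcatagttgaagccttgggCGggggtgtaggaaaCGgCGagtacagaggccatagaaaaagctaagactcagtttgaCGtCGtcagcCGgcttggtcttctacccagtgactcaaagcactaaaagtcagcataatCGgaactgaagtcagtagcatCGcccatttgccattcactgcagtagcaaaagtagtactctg
MEF2C: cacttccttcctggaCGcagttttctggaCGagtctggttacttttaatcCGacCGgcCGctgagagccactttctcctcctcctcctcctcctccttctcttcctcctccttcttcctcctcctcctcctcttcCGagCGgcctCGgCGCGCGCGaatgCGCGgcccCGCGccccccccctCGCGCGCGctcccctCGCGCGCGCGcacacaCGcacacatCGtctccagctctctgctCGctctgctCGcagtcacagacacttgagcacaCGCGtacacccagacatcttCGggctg
The IRF4 window and the printed MEF2C window hold 32 CpG each, above the upper quartile of 28 among 35116 promoter windows of this length. The other 6 MEF2C windows hold 1 to 8, below the median of 14, and the PRDM1 windows hold 14 and 8. Among genes not called in DNMT1 knockdown, the PAX5 window holds 30 CpG, the MAF window 16, the BCL6 windows 7 to 12 and the IKZF1 windows 0 to 35. CpG content thus differed between windows of called and of uncalled genes alike, and methylation was not measured here. Promoters were at hand for 7 of the 9 genes, in 17 windows; IKZF3 and POU2AF1 are named only. On both strands, the interferon-stimulated response core, bound by IRF family factors, was in none of the 17 windows and in 3.57% of all promoters. The PRDM1 core AGNGAAAG was in 1 window, of IKZF1, and in 7.99% of all, and the octamer ATGCAAAT in 1 window, of MEF2C, and in 1.77% of all. The IKZF core TGGGAA was in 5 windows, of IKZF1, IRF4 and MEF2C, and in 24% of all promoters.

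In DNMT1 knockdown cells 3 of the 9 genes fell, IRF4, PRDM1 and MEF2C, and POU2AF1 rose. In HDAC3 knockdown cells, averaged over the hairpins, IKZF3 and MEF2C fell. Calls were made where limma's p, adjusted by Benjamini-Hochberg over 19775 genes, was under 0.05. By this rule 4 of 9 were called in DNMT1 knockdown, against 20.2% of all genes, and 2 of 9 in HDAC3 knockdown, against 19.2% of all genes. With probe sets of a mean under 5 dropped, which leaves all 9 genes, these shares of all genes were 27.4% and 27.8%. Among all genes 13.5% were called lower and 6.66% higher in DNMT1 knockdown, and 15.3% lower and 3.96% higher in HDAC3 knockdown. By hairpin, 3 of 9 were called with shHDAC3#1 (24.4% of all genes), 2 with shHDAC3#2 (10.9%), 4 with shDNMT1#1 (8.15%) and 3 with shDNMT1#2 (26.8%). The median change of the 9 genes was -0.11 in DNMT1 knockdown and -0.09 in HDAC3 knockdown, beside 0.07 and 0.05 over all genes. All 4 DNMT1 knockdown arrays lay below both shLuc arrays for IRF4, PRDM1, IKZF1 and MEF2C and above them for POU2AF1, 5 of 9 against 34.1% of all genes. In HDAC3 knockdown such separation held for POU2AF1 and MEF2C (below) and PAX5 (above), 3 of 9 against 37.9% of all genes. The HDAC3 hairpins differed from each other for 4 of the 9 genes and the DNMT1 hairpins for 3, and the values of each hairpin are therefore given with every gene.

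**Figure D1:**
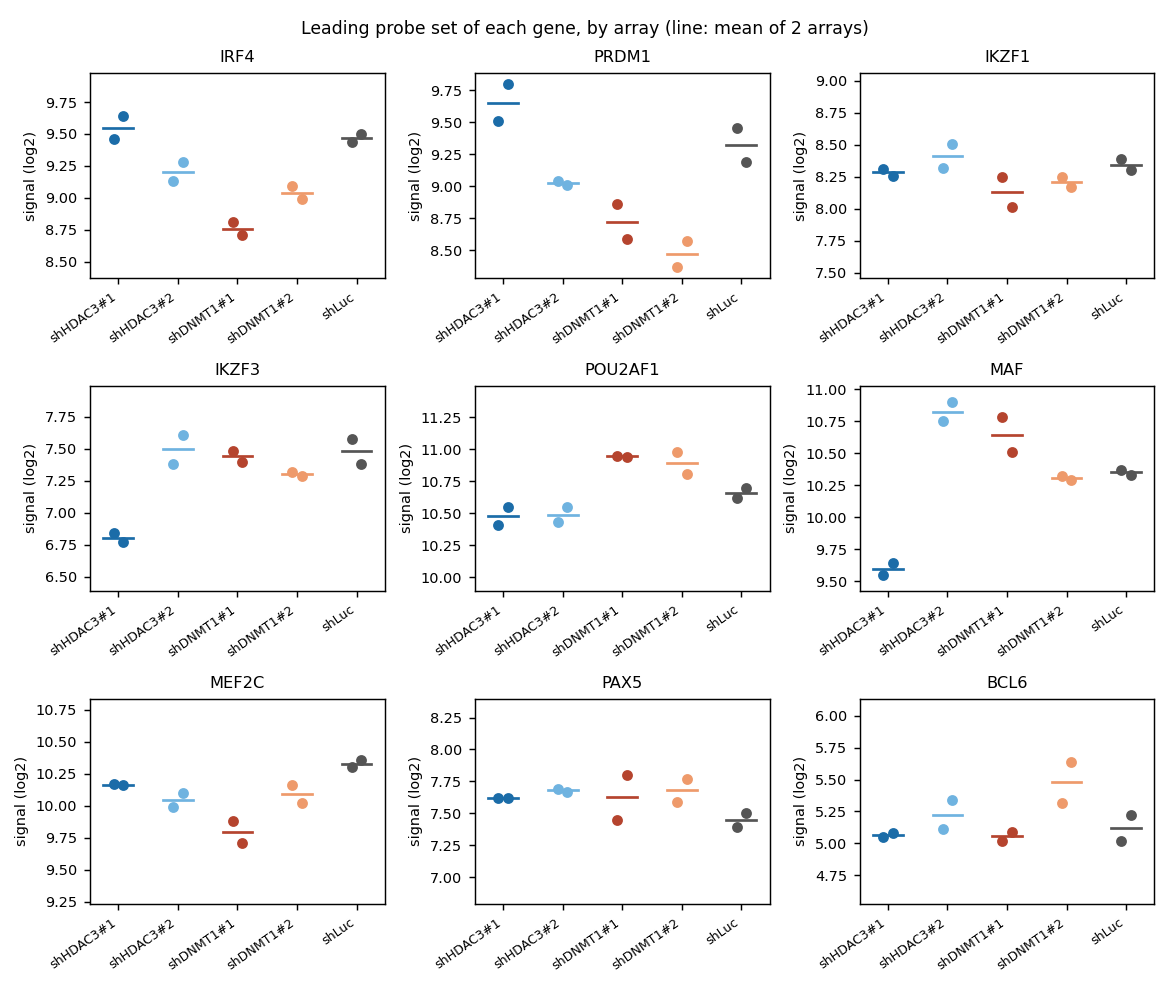
Log2 signal (y axis) of the leading probe set of each of the 9 genes on every array, by group (x axis); points are arrays and lines the mean of 2 arrays. IRF4 and PRDM1 lie lower with both DNMT1 hairpins than with shLuc, and MAF lies at 9.55 and 9.64 with shHDAC3#1 but at 10.75 and 10.90 with shHDAC3#2.

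IRF4 fell with both DNMT1 hairpins. Its leading probe set (204562_at) gave log2 signals of 9.46 and 9.64 with shHDAC3#1 and 9.13 and 9.28 with shHDAC3#2. It gave 8.81 and 8.71 with shDNMT1#1 and 9.09 and 8.99 with shDNMT1#2, against 9.44 and 9.50 with shLuc. The DNMT1 arrays were the lowest 4 of the 10, and the HDAC3 arrays lay on both sides of shLuc. The change in DNMT1 knockdown cells was -0.57 ± 0.08 (SE; limma, adjusted p = 3.11e-05), a signal at 67.6% of that with shLuc. By hairpin it was -0.70 for shDNMT1#1 (limma, adjusted p = 3.19e-05) and -0.43 for shDNMT1#2 (limma, adjusted p = 0.00202). The other probe sets of IRF4 were not called in DNMT1 knockdown. The second one, with a mean of 6.48, changed by -0.43 with shDNMT1#1 (limma over probe sets, adjusted p = 0.0203) but had 0.11 with shDNMT1#2 (limma over probe sets, adjusted p = 0.493), and the third, at a mean of 2.79, had 0.33 in DNMT1 knockdown and was not called. With shHDAC3#1 the second probe set was called higher at 0.36 (limma over probe sets, adjusted p = 0.0271), where the leading one had 0.08. Averaged over all 3 probe sets, IRF4 had -0.13 in DNMT1 knockdown cells (limma, adjusted p = 0.242). A further quantile normalization of the arrays took the shDNMT1#2 value of IRF4 to -0.03 (limma, adjusted p = 0.774) and that of the DNMT1 knockdown to -0.27 (limma, adjusted p = 0.00338).

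PRDM1 fell with both DNMT1 hairpins and rose with shHDAC3#1. Its leading probe set (228964_at) gave 9.51 and 9.80 with shHDAC3#1 and 9.04 and 9.01 with shHDAC3#2. It gave 8.86 and 8.59 with shDNMT1#1 and 8.37 and 8.57 with shDNMT1#2, against 9.46 and 9.19 with shLuc. Both shHDAC3#1 arrays were above shLuc and both shHDAC3#2 arrays below it, while the DNMT1 arrays were below all others. In DNMT1 knockdown cells PRDM1 fell by 0.73 ± 0.10 on the log2 scale (SE; limma, adjusted p = 1.98e-05), to 60.3% of the shLuc signal. The fall was called with each DNMT1 hairpin, at 65.9% of shLuc for shDNMT1#1 and 55.3% for shDNMT1#2. With shHDAC3#1 PRDM1 rose by 0.33 (limma, adjusted p = 0.0437), and with shHDAC3#2 it had -0.30 (limma, adjusted p = 0.129). Without shHDAC3#1 replicate 2 or without shLuc replicate 2 that rise was 0.19 and not called (limma, adjusted p = 0.358 and 0.317). Without shLuc replicate 1 the shDNMT1#1 value was -0.46 and not called (limma, adjusted p = 0.117). The other PRDM1 probe sets, with means of 7.83 and 7.63, also rose with shHDAC3#1, by 0.37 and 0.36, where 5.28% of all probe sets were called higher. In that fit over probe sets the leading one missed the threshold with shHDAC3#1 (limma over probe sets, adjusted p = 0.0571). In DNMT1 knockdown they had -0.37 (limma over probe sets, adjusted p = 0.00755) and -0.12 (limma over probe sets, adjusted p = 0.347).

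MEF2C fell in DNMT1 knockdown cells, and in HDAC3 knockdown cells its call lay at the threshold. Its leading probe set (209199_s_at) gave 10.17 and 10.16 with shHDAC3#1 and 9.99 and 10.10 with shHDAC3#2. It gave 9.88 and 9.71 with shDNMT1#1 and 10.16 and 10.02 with shDNMT1#2, against 10.30 and 10.36 with shLuc. Both shLuc arrays were above all 8 knockdown arrays. The change was -0.38 ± 0.08 in DNMT1 knockdown (SE; limma, adjusted p = 0.00104) and -0.22 ± 0.08 in HDAC3 knockdown, at the edge of the call (SE; limma, adjusted p = 0.0499). The other 2 probe sets of MEF2C, with means of 9.15 and 7.13, were called lower in both knockdowns, with -0.62 and -0.32 in DNMT1 knockdown (11.1% of all probe sets called lower) and -0.39 and -0.28 in HDAC3 knockdown (12.4%). In that fit over probe sets the leading one was not called in HDAC3 knockdown (limma over probe sets, adjusted p = 0.0624). In HDAC3 knockdown it was called with shHDAC3#2 (-0.28) and not with shHDAC3#1 (-0.16; limma, adjusted p = 0.19), and a further quantile normalization took the average to -0.06 (limma, adjusted p = 0.447). By the leading probe set the fall in DNMT1 knockdown was called with shDNMT1#1 (-0.53) and not with shDNMT1#2, at -0.24 (limma, adjusted p = 0.0531). After the further quantile normalization it had -0.46 with shDNMT1#1, 0.07 with shDNMT1#2 and 0.04 with shHDAC3#1, and only the first was called. The probe set with a mean of 9.15 was called lower with shDNMT1#2 (-0.51) and shHDAC3#1 (-0.405) as well (limma over probe sets, adjusted p = 0.0016 and 0.0108). Over all probe sets 12.8% and 13.6% were called lower with these hairpins. The HDAC3 call of the leading probe set ended without any single array of shLuc, shHDAC3#1 or shDNMT1#2, or without shHDAC3#2 replicate 1, with changes of -0.25 to -0.19 (limma, adjusted p = 0.0592 to 0.211).

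POU2AF1 rose in DNMT1 knockdown cells. Its leading probe set (205267_at) gave 10.41 and 10.55 with shHDAC3#1 and 10.43 and 10.55 with shHDAC3#2. It gave 10.95 and 10.94 with shDNMT1#1 and 10.98 and 10.81 with shDNMT1#2, against 10.62 and 10.70 with shLuc. The DNMT1 arrays were the highest 4 and the HDAC3 arrays the lowest 4, with shLuc between them. The rise in DNMT1 knockdown was 0.26 ± 0.08 (SE; limma, adjusted p = 0.0188), and HDAC3 knockdown gave -0.17 ± 0.08 (SE; limma, adjusted p = 0.123). The DNMT1 hairpins gave 0.29 with shDNMT1#1 (limma, adjusted p = 0.0486) and 0.24 with shDNMT1#2, not called (limma, adjusted p = 0.0522). The call of the averaged rise ended in 9 of 24 alternatives. Among these were arrays centred on their medians (limma, adjusted p = 0.0651), limma without the trend (adjusted p = 0.0573) and the mean of all probe sets (0.18 in limma, adjusted p = 0.178). Without shLuc replicate 1 the rise was 0.22, and without shDNMT1#2 replicate 1 also 0.22, neither called. The only other POU2AF1 probe set is dim (mean 2.68) and was not called.

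IKZF3 (Aiolos) fell with 1 HDAC3 hairpin and not with the other. Its leading probe set (227030_at) gave 7.48 and 7.40 with shDNMT1#1 and 7.32 and 7.29 with shDNMT1#2. It gave 6.84 and 6.77 with shHDAC3#1 and 7.38 and 7.61 with shHDAC3#2, against 7.58 and 7.38 with shLuc. Both shHDAC3#1 arrays stood below the other 8, and shHDAC3#2 overlapped shLuc. The change was -0.67 ± 0.11 with shHDAC3#1 (SE; limma, adjusted p = 8.39e-05), to 62.7% of shLuc, and 0.02 ± 0.11 with shHDAC3#2 (SE; limma, adjusted p = 0.952). The average of both, -0.33 (limma, adjusted p = 0.0165), was 0.02 with shHDAC3#2 alone. It was not called without shLuc replicate 1 (-0.23), without shHDAC3#2 replicate 1 (-0.27) or without shHDAC3#1 replicate 2 (-0.31). All 3 IKZF3 probe sets were called lower with shHDAC3#1, against 13.6% of all probe sets, with changes of -0.67 to -0.36, and none with shHDAC3#2, against 7.7%.

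IKZF1 (Ikaros), by its leading probe set (205039_s_at), did not pass the test in either knockdown. It gave 8.25 and 8.01 with shDNMT1#1, 8.25 and 8.17 with shDNMT1#2, 8.31 and 8.26 with shHDAC3#1, and 8.32 and 8.51 with shHDAC3#2, against 8.39 and 8.30 with shLuc. The change was -0.18 in DNMT1 knockdown (95% interval -0.36 to 0.01) and 0.00 in HDAC3 knockdown (95% interval -0.18 to 0.19). Its 9 probe sets disagreed. In DNMT1 knockdown 1 was called lower (-0.30) and 2 higher (0.37 and 0.33), and with shDNMT1#2 there were 2 lower (-0.54 and -0.33) and 2 higher (0.50 and 0.33). Over all probe sets 11.1% were called lower and 4.61% higher in DNMT1 knockdown, and 12.8% lower and 8.79% higher with shDNMT1#2. The 2 IKZF1 probe sets called higher correlated with the leading one at r = -0.43 each over the 10 arrays, so that the direction for the gene depends on which probe set is read.

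MAF fell with shHDAC3#1 and rose with shHDAC3#2. Its leading probe set (209348_s_at) gave 10.78 and 10.51 with shDNMT1#1 and 10.32 and 10.29 with shDNMT1#2. It gave 9.55 and 9.64 with shHDAC3#1 and 10.75 and 10.90 with shHDAC3#2, against 10.37 and 10.33 with shLuc. The shHDAC3#1 arrays were the lowest 2 of the 10, and the shHDAC3#2 arrays lay above both shLuc arrays. MAF fell by 0.76 with shHDAC3#1 (limma, adjusted p = 4.39e-06), to 59.2% of shLuc, and rose by 0.47 with shHDAC3#2 (limma, adjusted p = 0.00151), to 139% of it. The averaged change of -0.14 (95% interval -0.31 to 0.03) thus lay between 2 called changes of opposite sign. Between the hairpins, shHDAC3#1 minus shHDAC3#2 was -1.23 (95% interval -1.43 to -1.03; limma, adjusted p = 6.92e-09). The HDAC3 transcript itself had -1.09 with shHDAC3#1 and -1.26 with shHDAC3#2, and the difference between them was not called (limma, adjusted p = 0.668). The DNMT1 transcript had -1.20 with shHDAC3#1 and -0.65 with shHDAC3#2, and that difference was called (-0.55; limma, adjusted p = 0.00271).

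The MAF probe sets gave the same picture for the HDAC3 hairpins. The 4 with a mean of at least 5 were all called lower with shHDAC3#1, by -0.91 to -0.47, and all called higher with shHDAC3#2, by 0.43 to 0.63. Over all probe sets 13.6% were called lower with shHDAC3#1 and 1.02% higher with shHDAC3#2. The other 3 of these 4 correlated with the leading one at r = 0.97, 0.98 and 0.90 over the 10 arrays, which form 5 pairs of replicates. The dim MAF probe sets, with means of 3.69 and 3.36, were not called with either HDAC3 hairpin. Between the DNMT1 hairpins the leading one was the only 1 of the 6 called. Averaged over all 6 the difference was 0.04 (limma, adjusted p = 0.814). The probe sets with means of 6.97 and 3.36 were called higher with shDNMT1#2, at 0.31 and 0.64 (limma over probe sets, adjusted p = 0.0408 and 0.00193). The leading one had -0.05 there, and 8.79% of all probe sets were called higher. Among the 9 genes, IKZF3 was most like MAF (r = 0.91 over 10 arrays), a description that rests largely on the shHDAC3#1 pair.

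**Figure D2:**
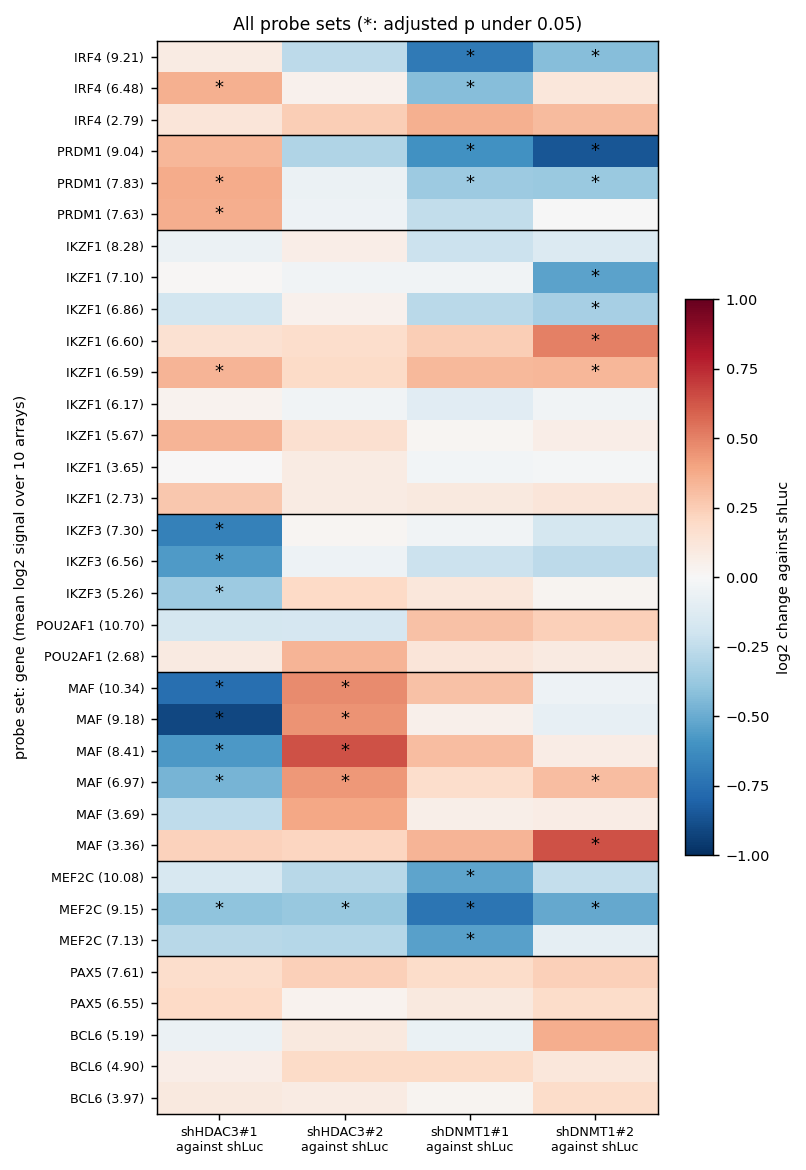
Log2 change against shLuc (colour) of all 34 probe sets, with the mean log2 signal of each in brackets (rows), for the 4 hairpins (columns); a star marks an adjusted p under 0.05 in the fit over 41097 probe sets. The 4 bright MAF rows are blue with shHDAC3#1 and red with shHDAC3#2, and the IKZF1 rows are of both colours with shDNMT1#2.

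PAX5 and BCL6, which hold the B cell and germinal centre programs, did not pass the test in either knockdown. The leading PAX5 probe set (206802_at) gave 7.62 on both shHDAC3#1 arrays, 7.69 and 7.67 with shHDAC3#2, 7.45 and 7.80 with shDNMT1#1, and 7.59 and 7.77 with shDNMT1#2, against 7.39 and 7.50 with shLuc. Its change was 0.21 in both knockdowns (95% interval 0.005 to 0.413 in HDAC3 knockdown; limma, adjusted p = 0.134 in DNMT1 and 0.139 in HDAC3 knockdown). All HDAC3 arrays were above both shLuc arrays for PAX5, while the shDNMT1#1 arrays overlapped them. The leading BCL6 probe set (215990_s_at) gave 5.32 and 5.64 with shDNMT1#2, 5.02 and 5.09 with shDNMT1#1, 5.05 and 5.08 with shHDAC3#1, and 5.11 and 5.34 with shHDAC3#2, against 5.02 and 5.22 with shLuc. Both shDNMT1#2 arrays were above shLuc. BCL6 was called higher with shDNMT1#2, by 0.36 (limma, adjusted p = 0.0495), but not in the fit over probe sets (adjusted p = 0.0642 in limma). Without shDNMT1#2 replicate 2 that value was 0.20 (limma, adjusted p = 0.367), and without shLuc replicate 1 it was 0.26 (limma, adjusted p = 0.351). The leading BCL6 probe set sits near the dim end, with a mean of 5.19, and the other 2 (4.90 and 3.97) were not called.

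**Figure D3:**
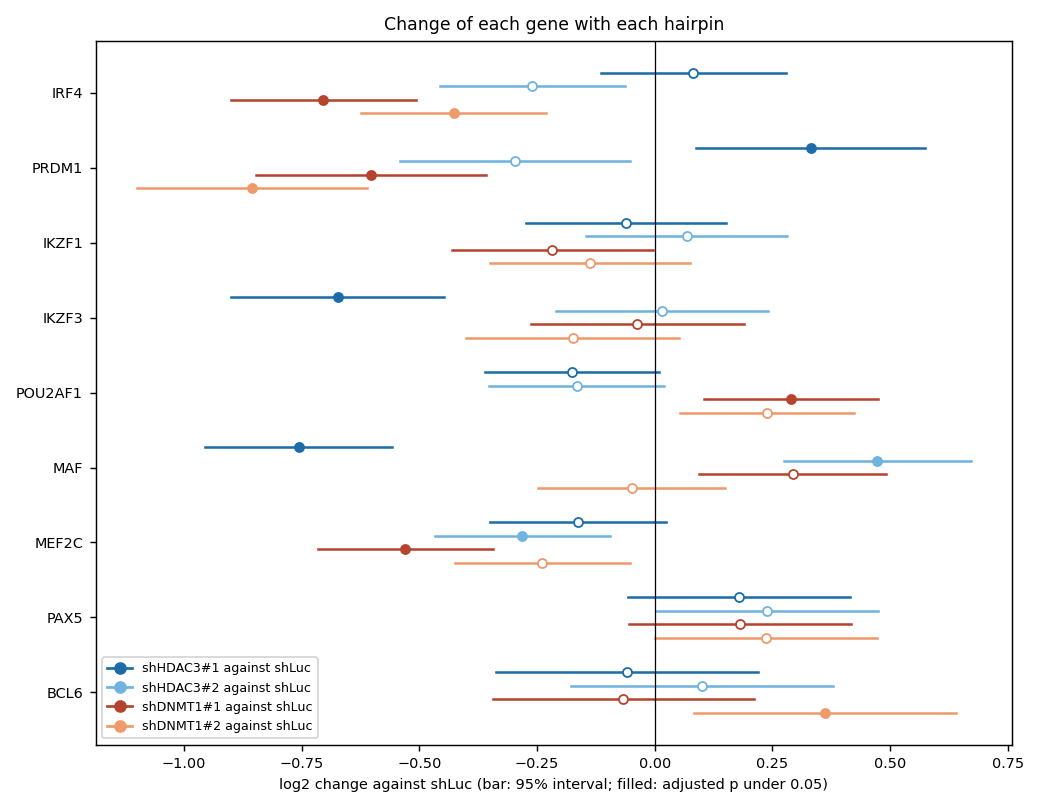
Log2 change against shLuc (x axis) of the 9 genes (rows) for each of the 4 hairpins; points are fitted changes from 2 arrays against 2, bars are 95% intervals, and filled points have an adjusted p under 0.05. MAF has filled points on both sides of 0 for the HDAC3 hairpins, and PRDM1 has filled points on both sides of 0 for shHDAC3#1 and the DNMT1 hairpins.

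DNMT1 and HDAC3 knockdown were also set against each other. The shLuc arrays do not enter the size of this difference, but they enter the shared spread behind its p. The difference was called for 4 of the 9 genes, against 9.59% of all genes, or 13.1% with probe sets of a mean under 5 dropped. DNMT1 minus HDAC3 was -0.48 for IRF4 (limma, adjusted p = 3.85e-05), -0.75 for PRDM1 (2.18e-06 in the same fit), 0.43 for POU2AF1 (5.75e-05) and 0.26 for MAF (0.0135). None of the 4 was called with both hairpins as 1 group (limma, adjusted p = 0.185, 0.157, 0.0683 and 0.76 in that order) or with the hairpin as a random block (0.445, 0.332, 0.25 and 0.952), where 0.147% and 0.0303% of all genes were called. The MAF value averages HDAC3 hairpins of opposite sign, and it was not called without replicate 1 of shHDAC3#1, shHDAC3#2, shDNMT1#1 or shDNMT1#2 (0.19 to 0.26). For MEF2C, called lower in both knockdowns, the difference was -0.16 (95% interval -0.29 to -0.03; limma, adjusted p = 0.122). Between the HDAC3 hairpins 4 of 9 genes differed, against 12.6% of all genes: MAF, IKZF3 (-0.69), PRDM1 (0.63) and IRF4 (0.34). Between the DNMT1 hairpins 3 of 9 differed, against 12% of all genes: MAF (0.34), MEF2C (-0.29) and BCL6 (-0.43). The HDAC3 hairpin difference of IRF4 was not called without shHDAC3#1 replicate 2 (0.25) or shHDAC3#2 replicate 1 (0.27). Without shDNMT1#2 replicate 2 none of the 3 DNMT1 hairpin differences was called, at 0.33 for MAF, -0.36 for MEF2C and -0.27 for BCL6.

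The calls against shLuc also depended on how the hairpins and the SD of the arrays were treated. With both hairpins of a target as 1 group of 4 arrays, with the hairpin as a random block, or with the SD of each array as a covariate (added after seeing the data), 0 of the 9 genes were called in either knockdown by limma. The adjusted p under these settings was 0.0742, 0.183 and 0.687 for IRF4, 0.0972, 0.223 and 0.612 for PRDM1, and 0.115, 0.286 and 0.818 for MEF2C in DNMT1 knockdown. At those settings 1.65%, 0.157% and 0.602% of all genes were called in DNMT1 knockdown, and 1.83%, 0.369% and 0.576% in HDAC3 knockdown. The SD was 1.943 and 1.929 in the shLuc arrays and at most 1.915 in the knockdown arrays. As a covariate it can hardly be told apart from knockdown against control, so the loss of calls with it cannot decide if the 9 genes changed.

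Genes activated by MAF were read from a list of 6 MAF targets known in myeloma, which includes the cyclin CCND2, the integrin subunit ITGB7 and the chemokine receptor CCR1. They did not all move in the direction of MAF. ITGB7 gave 11.53 and 11.58 with shHDAC3#1 and 12.39 and 12.53 with shHDAC3#2, against 12.45 and 12.42 with shLuc. CCND2 gave 10.75 and 11.05 with shHDAC3#1 and 9.83 and 9.87 with shHDAC3#2, against 10.79 and 10.68 with shLuc. ITGB7 was thus lower on the shHDAC3#1 arrays, where MAF was low, and CCND2 was lower on the shHDAC3#2 arrays, where MAF was high. ITGB7 changed by -0.88 with shHDAC3#1 (limma, adjusted p = 7.01e-08) and CCND2 by -0.89 with shHDAC3#2 (limma, adjusted p = 1.83e-06). For the hairpins where MAF was called, the list gave 1 target higher and 1 lower with shHDAC3#1 (median 0.01) and 0 higher and 1 lower with shHDAC3#2 (median 0.06). Of all 19775 genes 1549 were called higher and 3285 lower with shHDAC3#1, and 259 higher and 1887 lower with shHDAC3#2. With shDNMT1#1, where MAF had 0.29 (limma, adjusted p = 0.0631), 4 of the 6 targets were called higher, with a list median of 0.44 beside 0.05 over all genes, of which 1.34% were called higher. These were NUAK1 (0.82), CCR1 (0.55), CCND2 (0.47) and ITGB7 (0.41), and the targets named by hairpin were picked after their values were seen. With shDNMT1#2, where 15.2% of all genes were called lower, CCR1 (-0.86) and NUAK1 (-0.53) were called lower.

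**Figure D4:**
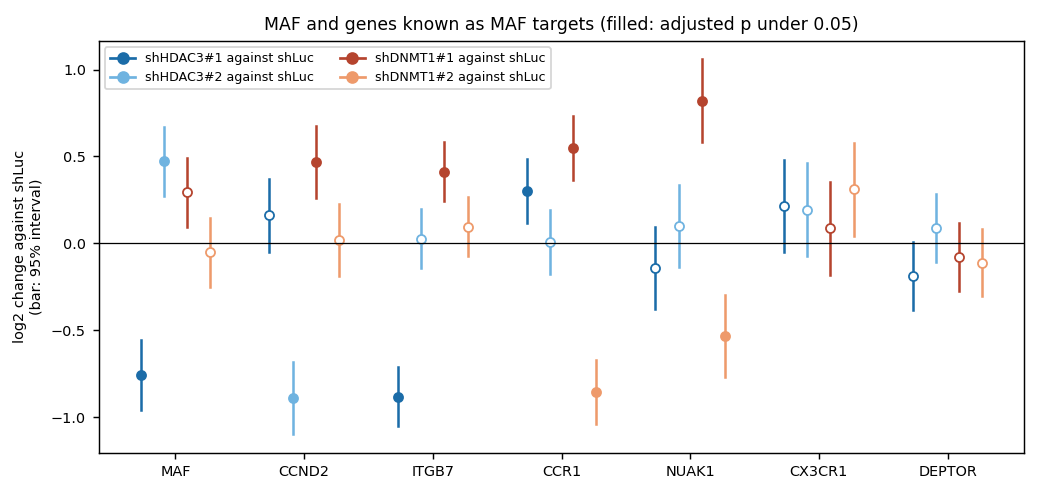
Log2 change against shLuc (y axis) of MAF and 6 genes known as MAF targets (x axis) for the 4 hairpins; bars are 95% intervals and filled points have an adjusted p under 0.05. ITGB7 is low with shHDAC3#1 and CCND2 with shHDAC3#2, while CCND2, ITGB7, CCR1 and NUAK1 are high with shDNMT1#1.

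Among 7 genes known to depend on IRF4 in myeloma, 3 were called lower in DNMT1 knockdown and 4 in HDAC3 knockdown. Over all genes 13.5% and 15.3% were called lower. None of the 7 was called higher in these averages. By hairpin, 1 was called higher with shHDAC3#2 and 1 with shDNMT1#2, beside 259 and 2297 of all 19775 genes. The list median was -0.21 in DNMT1 knockdown and -0.50 in HDAC3 knockdown, beside 0.07 and 0.05 over all genes. The cohesin subunit STAG2 (-0.53 in DNMT1 and -0.52 in HDAC3 knockdown) and the Mediator cyclin CCNC were lower in both. STAG2 had -0.16 with shDNMT1#1 and -0.89 with shDNMT1#2, a difference that was called. Without shLuc replicate 1, STAG2 (-0.43 in each knockdown) and CCNC (-0.29 in DNMT1 and -0.46 in HDAC3 knockdown) were not called. The quiescence factor KLF2 fell in DNMT1 knockdown (-0.385; -0.28 and not called without shLuc replicate 1) and had -0.101 in HDAC3 knockdown. The lipid enzymes SCD and SQLE were lower in HDAC3 knockdown, where IRF4 was not called, and SQLE had -0.60. SQLE gave 7.51 and 7.40 with shDNMT1#1 but 8.34 and 8.42 with shDNMT1#2, against 8.27 and 7.99 with shLuc. MYC, part of an IRF4 loop in myeloma, was not called in either knockdown, with 0.10 in DNMT1 knockdown (limma, adjusted p = 0.344) and an average over the HDAC3 hairpins made of -0.34 with shHDAC3#1 (limma, adjusted p = 0.00763) and 0.47 with shHDAC3#2 (limma, adjusted p = 0.00075). MYC gave 10.72 and 10.75 with shHDAC3#1 and 11.49 and 11.59 with shHDAC3#2, against 11.14 and 11.00 with shLuc, so that its HDAC3 hairpins differed in the direction that those of MAF did. The DNMT1 hairpins ran the other way, with MYC at 11.01 and 10.87 with shDNMT1#1 and at 11.48 and 11.34 with shDNMT1#2. MAF was higher with shDNMT1#1 by its leading probe set, but not by the one with a mean of 6.97.

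The plasma cell program around IRF4 and PRDM1 held genes called in both directions. Of 16 genes measured, 6 were called lower and 3 higher in DNMT1 knockdown, with a median of 0.05 beside 0.07 over all genes, and 7 lower and 1 higher in HDAC3 knockdown, with a median of -0.21 beside 0.05. Over all genes 13.5% were called lower and 6.66% higher in DNMT1 knockdown, and 15.3% lower and 3.96% higher in HDAC3 knockdown. The elongation factor ELL2, which promotes secretory immunoglobulin mRNA processing, changed by -0.96 in DNMT1 and -1.62 in HDAC3 knockdown. The surface receptor SLAMF7 changed by -0.77 in DNMT1 and -0.81 in HDAC3 knockdown, the second made of -1.33 with shHDAC3#1 and -0.29 with shHDAC3#2. TNFRSF17 (BCMA), a survival receptor of plasma cells, gave 9.74 and 9.62 with shDNMT1#1 and 9.54 and 9.44 with shDNMT1#2, against 10.66 and 10.62 with shLuc. Its fall of 1.06 in DNMT1 knockdown (limma, adjusted p = 7.22e-09) stood beside -0.22 in HDAC3 knockdown (limma, adjusted p = 0.0573), and DNMT1 minus HDAC3 was called at -0.84. The HDAC3 average is made of 0.19 with shHDAC3#1 (limma, adjusted p = 0.131) and -0.62 with shHDAC3#2 (limma, adjusted p = 4.5e-05), which differed from each other. The signal peptidase subunit SEC11C changed by -0.65 in HDAC3 knockdown. MZB1 gave 8.71 and 8.56 with shDNMT1#1 but 10.99 and 10.68 with shDNMT1#2, against 10.22 and 10.36 with shLuc. Its DNMT1 hairpins thus lay on opposite sides of shLuc. With shHDAC3#1 both MZB1 arrays lay below shLuc, while shHDAC3#2 gave 10.35 and 10.43 and overlapped it. XBP1 lay below both shLuc arrays with each DNMT1 hairpin. The genes called higher in DNMT1 knockdown were CD38, FKBP11 and PIM2, and in HDAC3 knockdown CD38. By hairpin, 0 of the 16 genes were called higher with shHDAC3#1, 0 with shHDAC3#2, 1 with shDNMT1#1 and 5 with shDNMT1#2. Of all 19775 genes 1549, 259, 265 and 2297 were called higher with these hairpins, in that order. FKBP11 gave 10.47 and 10.51 with shDNMT1#1 and 10.85 and 10.77 with shDNMT1#2, against 10.29 and 10.48 with shLuc. For CD38 the shDNMT1#2 arrays were the highest of all, and 1 shDNMT1#1 array read 5.89, as did 1 shLuc array. XBP1 and the genes called higher were named after their values were seen.

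Genes listed for the B cell program were mostly not called, as most genes were not. Of 21 genes measured, 1 was called higher and 2 lower in DNMT1 knockdown, and 2 higher and 1 lower in HDAC3 knockdown, with medians of 0.05 and 0.06 beside 0.07 and 0.05 over all genes. Called in either direction were 20.2% of all genes in DNMT1 and 19.2% in HDAC3 knockdown. The program's genes called in DNMT1 knockdown were the factor ETS1 (0.39), the complement receptor CR2 (-0.42) and the E protein TCF3 (-0.26). CR2 had -1.06 with shDNMT1#1 and 0.21 with shDNMT1#2, and only the value with shDNMT1#1 was called. Those called in HDAC3 knockdown were the Fc receptor FCER2 (0.34), the factor SPI1 (0.31) and the adaptor BLNK (-0.35). BLNK had -0.81 with shHDAC3#1 and 0.11 with shHDAC3#2, and the fall was called with the first of them only; FCER2 and SPI1 were likewise called with shHDAC3#1 (0.49 and 0.48) and not with shHDAC3#2 (0.19 and 0.15). None of these 6 genes was called without shLuc replicate 1, where CR2 had -0.28 and BLNK -0.21.

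Partners and co-repressors of the 9 factors gave 4 lower and 2 higher of 21 in DNMT1 knockdown, and 2 lower and 2 higher of 21 in HDAC3 knockdown. Over all genes 13.5% and 15.3% were called lower and 6.66% and 3.96% higher in these comparisons. The AP-1 subunit JUN, which can pair with BATF beside IRF4, changed by -0.58 in DNMT1 and -1.31 in HDAC3 knockdown, but its shLuc arrays read 9.13 and 8.11. Without shLuc replicate 1 these values were -0.07 (limma, adjusted p = 0.811) and -0.80 (limma, adjusted p = 0.00024), and without shLuc replicate 2 the DNMT1 value was -1.09. The deacetylase HDAC2 changed by -0.48 in DNMT1 and -0.58 in HDAC3 knockdown, called with shDNMT1#2 (-0.68) and shHDAC3#1 (-0.86) and not with shDNMT1#1 (-0.29) or shHDAC3#2 (-0.30). The BCL6 co-repressor BCOR (-0.41) and HDAC1 (-0.38) were lower in DNMT1 knockdown. BCOR had -0.02 with shDNMT1#1 and -0.79 with shDNMT1#2, HDAC1 had -0.26 and -0.51, and each was called with the second hairpin only. Without shLuc replicate 1 neither average was called (-0.22 for BCOR and -0.35 for HDAC1). Of 16 paralogs of the factors, 2 were lower in DNMT1 knockdown and 3 in HDAC3 knockdown, none higher, shares near the 13.5% and 15.3% of all genes called lower. IRF2, a relative of IRF4, changed by -0.55 in DNMT1 and -0.63 in HDAC3 knockdown, made of -0.175 with shDNMT1#1 and -0.924 with shDNMT1#2, and of -1.01 with shHDAC3#1 and -0.24 with shHDAC3#2. MEF2A gave 6.87 and 6.53 with shDNMT1#1 and 6.39 and 6.38 with shDNMT1#2, 6.70 and 6.73 with shHDAC3#1 and 6.47 and 6.56 with shHDAC3#2, against 7.16 and 7.04 with shLuc. MEF2A was thus lower on all 8 knockdown arrays, as MEF2C was, and was called with each hairpin; its HDAC3 average was not called without shLuc replicate 1 (-0.42).

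For each factor called in a knockdown, the genes with the most similar pattern were sought among 4500 with a mean of at least 5 and an SD over arrays of at least 0.2. The likeness is Pearson's r over 10 arrays that form 5 pairs, and describes these arrays only. IRF4 was followed by DNAJC1 (0.989), ST3GAL6 (0.963) and RHEB (0.954). PRDM1 was followed by SPEN (0.985), AMPD1 (0.981) and TNFRSF17 (0.951). IKZF3 was followed by MRPL38 (0.986), NDUFS7 (0.985) and ZBTB33 (0.985). POU2AF1 was followed by IFITM1 (0.960), SSR2 (0.932) and PLPP5 (0.924), and MEF2C by CIAO2A (0.973), KIAA1191 (0.968) and NIPA2 (0.967). Among the factors, IRF4 ran with MEF2C (r = 0.86) and PRDM1 (r = 0.83) and against POU2AF1 (r = -0.70), and PRDM1 ran against POU2AF1 (r = -0.76).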

How the data were processed

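The authors deposited log2 signal for 54675 probe sets of an Affymetrix expression array. Per the submitters' processing notes the tool was RMA; neither its version nor whether 1 run covered all arrays is stated in what was used here. RMA corrects background, equalises probe distributions between arrays and summarises each probe set, and it compresses changes of dim transcripts. The number of arrays limits the precision.

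Gene names came from GEO's annotation of the platform. It gave a single symbol for 41097, several for 1801 and none for 11777, and only the first kind was used; 41043 matched RefSeq by gene ID and no symbol changed. The brightest probe set over 10 arrays represented each of 19775 genes. One limma fit (version 3.58.1, R 4.3.3) of 5 groups, with 5 residual degrees of freedom and an intensity trend, gave all contrasts, two-sided, with Benjamini-Hochberg adjustment and calls at an adjusted p under 0.05; a knockdown is the mean of its 2 hairpins. A second fit covered all 41097 probe sets. Methods were tested on simulated data. Figures were drawn with matplotlib 3.10.9.

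The genes and lists were chosen with earlier results of these data known. Apart from the 9 genes, the text names up to 4 called genes of each list with the largest change, MYC, the targets and the 3 genes most like each called factor; other names are marked. Of 95 list entries 87 were measured, and of 40 marker entries 35. Alternatives covered probe set choice, scaling, trend, array weights, treatment of hairpins, replicate block and leaving out each array.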

Additional observations from a re-analysis of the deposited data

Results flagged for a closer look

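Differences between the 2 knockdowns were called by limma for 4 of the 9 genes, against 9.59% of all genes. Between the 2 hairpins of 1 target they were called for 4 of 9 with HDAC3, against 12.6%, and for 3 of 9 with DNMT1, against 12%. With probe sets of a mean under 5 dropped, the shares of all genes were 13.1% between the knockdowns. They were 17.5% between the HDAC3 hairpins and 16% between the DNMT1 hairpins. DNMT1 minus HDAC3 knockdown gave -0.48 for IRF4, -0.75 for PRDM1, 0.43 for POU2AF1 and 0.26 for MAF. None of these 4 was called with both hairpins of a target as 1 group or with the hairpin as a random block, and the MAF value averages -0.76 with shHDAC3#1 and 0.47 with shHDAC3#2. Hairpin shHDAC3#1 minus shHDAC3#2 gave 0.34 for IRF4, 0.63 for PRDM1, -0.69 for IKZF3 and -1.23 for MAF. Hairpin shDNMT1#1 minus shDNMT1#2 gave 0.34 for MAF, -0.29 for MEF2C and -0.43 for BCL6. The differences of MAF, PRDM1 and IKZF3 between the HDAC3 hairpins were called under all 20 alternatives run for them.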

How the results depend on the processing

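With 2 arrays a group, 1 array can decide a call. The number of genes called moved with the arrays kept. Leaving out 1 array gave 1410 to 4598 genes in HDAC3 knockdown (main 3801), 1365 to 4875 in DNMT1 knockdown (3991) and 1324 to 2341 between the knockdowns (1897). It gave 1994 to 5681 for shHDAC3#1 (4834), 1008 to 2473 for shHDAC3#2 (2146), 524 to 2556 for shDNMT1#1 (1611) and 2201 to 5959 for shDNMT1#2 (5302). Between hairpins it gave 1635 to 2845 for HDAC3 (2492) and 1417 to 2276 for DNMT1 (2365). The lowest counts against shLuc came without shLuc replicate 1.

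Both hairpins as 1 group gave 362 genes in HDAC3 knockdown, 326 in DNMT1 knockdown and 29 between them, and the hairpin as a random block 73, 31 and 6; both settings count the difference between hairpins as error. A fit with the SD of each array as covariate, added once the data had been seen, gave 114 in HDAC3 knockdown, 119 in DNMT1 knockdown, 225 for shHDAC3#1, 521 for shHDAC3#2, 555 for shDNMT1#1, 119 for shDNMT1#2 and 670 between the DNMT1 hairpins. Both shLuc arrays had a higher SD than every knockdown array, so this covariate can hardly be told apart from knockdown against control. One hairpin alone gave 2146 for shHDAC3#2 and 1611 for shDNMT1#1, and leaving out probe sets ending in _x_at or _s_at gave 2503 of 17100 genes in HDAC3 knockdown. A further quantile normalization gave 1955 higher and 2450 lower in HDAC3 knockdown (main 784 and 3017; arrays centred on their medians 417 and 3269) and 1968 higher and 2294 lower in DNMT1 knockdown (main 1317 and 2674; centred 523 and 3062).

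Some values that were called under 1 setting had the opposite sign under another. Under the further quantile normalization IRF4 in HDAC3 knockdown had 0.18 and POU2AF1 between the DNMT1 hairpins -0.18. With shHDAC3#2 alone IKZF3 had 0.02 and MAF 0.47. Without probe sets ending in _x_at or _s_at, IKZF1 had 0.50 and BCL6 0.08 between the DNMT1 hairpins. With the array SD as a covariate, MAF had -0.01 between the DNMT1 hairpins and IRF4 0.02 with shDNMT1#2. The cause of these changes of sign was not tested.

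The replicate numbers were not taken as pairs, since the deviations of same-numbered arrays correlated above 0.1 in 2 of 10 pairs of groups (-0.34 to 0.27). The replicate block gave 3416 genes in HDAC3 knockdown and 3573 in DNMT1 knockdown, and ended the calls of MEF2C in HDAC3 knockdown (adjusted p = 0.0704 in limma) and between the DNMT1 hairpins (0.0553), of PRDM1 with shHDAC3#1 (0.0587), of MEF2C with shHDAC3#2 (0.0716) and of POU2AF1 with shDNMT1#1 (0.0699).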
